A study of Saccharomyces cerevisiae with 14 samples.

Results

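The 9 budding yeast genes described here shared a direction of difference from wild type in cells without NPT1, in cells without PNC1 and in cells given nicotinamide: RTC2, PUT1, SRY1, IMD2, GSC2 and HES1 were higher, and ALT1, GYP5 and ARA1 were lower. These 9 genes, of 5449 Saccharomyces cerevisiae genes measured, were chosen from the values themselves, so their differences from wild type in these 3 conditions are given as a description and without a test. In the fit used here, 24 of 5498 probe sets were called in all 3 conditions at a Benjamini-Hochberg adjusted p below 0.05 (limma). For 16 of them, 0.291% of the probe sets, the direction was the same 3 times. The 9 genes are among these 16, and the other 7 were LYS1, SSU1, SNZ1, ODC2, FHN1, SER3 and YDR042C.

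Total RNA was measured on 14 Affymetrix Yeast 2.0 arrays, 1 per culture, with duplicate cultures named A and B in each of 7 groups. All strains were MATa his3D200 leu2D1 met15D0 trp1D63 ura3-167, grown to log phase in YPD, a rich medium. The wild type carried no further change and was measured in 2 pairs, coded ML1 and ML8 in the labels, which do not say which condition each pair belongs to. The 4 deletion strains carried npt1D::kanMX4, pnc1D::kanMX4, bna1D::kanMX4 or tna1D::kanMX4, in which a drug resistance marker replaces the gene. The remaining group was the wild type grown with 5 mM nicotinamide. The labels name 1 genotype per deletion and no second isolate, so strain and deletion cannot be told apart. P-values measure the spread between cultures of the same group, pooled over the groups. The 4 wild-type arrays formed 1 group, so their spread includes any difference between ML1 and ML8, except in the test of that difference.

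NAD+ is the co-substrate of sirtuins, protein deacetylases that in yeast keep parts of the genome silent. Yeast recycles the nicotinamide that sirtuins release: Pnc1 converts it to nicotinic acid, Npt1 makes nicotinic acid mononucleotide from that, and Tna1 takes up nicotinic acid from the medium. Bna1 acts in the separate route that builds NAD+ from tryptophan. Nicotinamide itself inhibits sirtuins. The series set out to describe expression under conditions that inhibit them. The products of the 9 genes work in other processes. RTC2, PUT1, SRY1 and ALT1 act on amino acids or are thought to move them. IMD2 serves guanine nucleotide synthesis, GSC2 the cell wall, HES1 sterol and lipid transport, GYP5 vesicle traffic, and ARA1 the reduction and oxidation of sugars and other carbonyl compounds.

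The signal of each probe set is a log2 value, so a difference of 1 is a doubling. Replicate arrays correlated at 0.9923 (ML1) to 0.9979 (pnc1Δ) over the 5498 probe sets. For 161 probe sets, wild-type array ML1 A lay more than 1 log2 unit away from the mean of its 3 counterparts, and for each of those arrays this held for 12 to 74. NPT1, PNC1 and BNA1 were below the background limit of the arrays (2.22 to 2.26) on both arrays of the strain that lacks them, and TNA1 read 2.09 and 2.28 in tna1Δ. Each of the 9 genes has 1 probe set, and all 9 were above the background limit on all 14 arrays, by at least 1.38 log2 units.

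RTC2 encodes a vacuolar membrane protein of the PQ-loop family, thought to carry cationic amino acids. Its signal on the wild-type arrays was 8.90 and 9.34 (ML1) and 9.34 and 9.14 (ML8). It was 10.13 and 10.88 in npt1Δ, 10.73 and 10.52 in pnc1Δ, and 10.23 and 10.36 with nicotinamide. It was 8.85 and 9.08 in bna1Δ and 9.52 and 9.18 in tna1Δ. All 6 arrays of the first 3 conditions were thus above all 8 others, the lowest of them being npt1Δ A. The differences from wild type were 1.33 in npt1Δ, 1.45 in pnc1Δ and 1.12 with nicotinamide (each ± 0.20 SE, 2 arrays against 4), or 2.51-fold, 2.73-fold and 2.17-fold. Ranked by size among the 5498 probe sets, RTC2 took place 13 in pnc1Δ. The npt1Δ cultures were 0.744 apart in RTC2, and the npt1Δ difference was 1.70 without array A and 0.955 without array B.

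PUT1 encodes proline oxidase, the mitochondrial enzyme that starts the breakdown of proline to glutamate. Its wild-type signal was 3.99 and 4.30 (ML1) and 3.86 and 4.08 (ML8). It was 4.85 and 5.06 in npt1Δ, 4.79 and 4.85 in pnc1Δ, and 5.14 and 5.44 with nicotinamide, all above the 8 other arrays. The bna1Δ arrays read 3.64 and 3.90 and the tna1Δ arrays 4.24 and 4.37, on either side of the wild-type mean. The differences from wild type were 0.90, 0.76 and 1.23 in npt1Δ, pnc1Δ and nicotinamide (each ± 0.13 SE), or 1.87-fold, 1.70-fold and 2.35-fold. The sizes for npt1Δ and nicotinamide were not stable to the normalization, for a cause that was not tested. The median of all 10928 probe sets on the array was 3.32 to 3.40 on the wild-type arrays. It was 3.89 and 4.09 in npt1Δ, 4.29 and 4.27 with nicotinamide, and 3.25 and 3.36 in pnc1Δ. When the log2 values were quantile-normalized again, PUT1 differed by 0.225 in npt1Δ, by 0.413 with nicotinamide and by 0.724 in pnc1Δ.

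SRY1 encodes 3-hydroxyaspartate dehydratase, which breaks down a modified amino acid that is toxic to yeast. The wild-type arrays read 6.90, 6.82, 7.06 and 6.89. The signal was 7.93 and 7.89 in npt1Δ, 7.96 and 8.02 in pnc1Δ and 8.29 and 8.11 with nicotinamide, and all 6 arrays were above the rest. The bna1Δ arrays (6.85 and 6.91) lay within the wild-type range, and both tna1Δ arrays (6.78 and 6.52) lay below it. SRY1 differed from wild type by 0.996, 1.07 and 1.28 in npt1Δ, pnc1Δ and nicotinamide (each ± 0.09 SE), or 1.99-fold, 2.10-fold and 2.43-fold. SRY1 was the one gene of the 9 that met the rule of choice under every alternative setting for which it was recomputed.

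ALT1 encodes a mitochondrial alanine transaminase, which exchanges an amino group between alanine and glutamate. The wild-type arrays read 13.17, 13.19, 13.10 and 13.01. The signal was 12.85 and 12.87 in npt1Δ, 12.86 and 12.77 in pnc1Δ and 12.84 and 12.72 with nicotinamide, below all 8 other arrays. The bna1Δ arrays read 13.06 and 13.09 and the tna1Δ arrays 13.07 and 13.14, inside the wild-type range. The differences from wild type were small: -0.26, -0.30 and -0.34 in npt1Δ, pnc1Δ and nicotinamide (each ± 0.06 SE), that is 1.2-fold, 1.23-fold and 1.26-fold lower. Ranked by size among all probe sets, ALT1 took place 1022 in npt1Δ.

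IMD2 encodes an inosine monophosphate dehydrogenase, the enzyme of the rate-limiting step of GTP synthesis, and is known as the inducible member of its family. Its wild-type signal was 10.87 and 10.71 on the ML1 arrays and 11.09 and 11.24 on the ML8 arrays, so that the pairs did not overlap. The arrays read 12.37 and 12.42 in npt1Δ, 11.58 and 11.64 in pnc1Δ and 12.24 and 12.36 with nicotinamide. All 6 exceeded the other arrays, and the pnc1Δ arrays stood between the wild type and the other 2 conditions. The bna1Δ arrays (11.08 and 10.98) were inside the wild-type range and the tna1Δ arrays (10.69 and 10.68) just below it. IMD2 differed from wild type by 1.42 in npt1Δ, 0.63 in pnc1Δ and 1.32 with nicotinamide (each ± 0.12 SE), or 2.67-fold, 1.55-fold and 2.50-fold. Against ML1 alone these values were 1.61, 0.823 and 1.51, and against ML8 alone 1.23, 0.444 and 1.13. The IMD2 probe set is of the Affymetrix class whose probes can also match similar sequences, and how far IMD3 or IMD4 transcripts add to its signal was not tested.

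GSC2, also called FKS2, encodes a catalytic subunit of beta-1,3-glucan synthase, which makes the main polysaccharide of the yeast wall and serves in the spore wall. The wild-type arrays read 11.08, 11.13, 10.999 and 11.12, the tightest of the higher genes. The signal was 12.20 and 12.10 in npt1Δ, 11.56 and 11.51 in pnc1Δ and 12.15 and 12.13 with nicotinamide. In bna1Δ it was 11.54 and 11.27, both above wild type, and in tna1Δ 11.25 and 10.92, on either side of it. The groups therefore overlapped at one point, where bna1Δ A lay between the pnc1Δ arrays. The differences from wild type were 1.07, 0.46 and 1.06 in npt1Δ, pnc1Δ and nicotinamide (each ± 0.10 SE), or 2.10-fold, 1.37-fold and 2.08-fold.

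HES1, also called OSH5, encodes a protein of the oxysterol-binding family that binds and moves sterols and lipids between membranes. The wild-type arrays read 6.22, 5.97, 6.46 and 6.24. The signal was 7.02 and 7.15 in npt1Δ, 7.09 and 7.002 in pnc1Δ and 7.26 and 7.75 with nicotinamide, above all others. The bna1Δ arrays read 6.42 and 6.40, inside the wild-type range, and the tna1Δ arrays 5.75 and 5.37, below it. HES1 differed from wild type by 0.86, 0.82 and 1.28 in npt1Δ, pnc1Δ and nicotinamide (each ± 0.16 SE), or 1.82-fold, 1.77-fold and 2.43-fold. The nicotinamide cultures were 0.497 apart, and that difference was 1.53 without array A and 1.03 without array B.

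GYP5 encodes a GTPase-activating protein that switches off Rab proteins in traffic from the endoplasmic reticulum and in secretion. The wild-type arrays read 9.20, 9.28, 9.29 and 9.28. The signal was 8.98 and 8.99 in npt1Δ, 8.61 and 8.67 in pnc1Δ and 9.0 and 9.07 with nicotinamide. The bna1Δ arrays read 9.15 and 9.25 and the tna1Δ arrays 9.18 and 9.07, so that the higher nicotinamide array and the lower tna1Δ array met. GYP5 differed from wild type by -0.28, -0.62 and -0.23 in npt1Δ, pnc1Δ and nicotinamide (each ± 0.06 SE), that is 1.21-fold, 1.54-fold and 1.17-fold lower.

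ARA1 encodes an NADP+-dependent arabinose dehydrogenase of the aldo-keto reductase family. The wild-type arrays read 11.05, 11.18, 11.09 and 11.08. The signal was 10.54 and 10.61 in npt1Δ, 10.43 and 10.65 in pnc1Δ and 10.83 and 10.90 with nicotinamide, below all 8 others. The bna1Δ arrays read 11.16 and 11.19, at the top of the wild-type range, and both tna1Δ arrays 11.11, inside it. ARA1 differed from wild type by -0.52, -0.56 and -0.24 in npt1Δ, pnc1Δ and nicotinamide (each ± 0.07 SE), that is 1.44-fold, 1.47-fold and 1.18-fold lower.

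**Figure D1:**
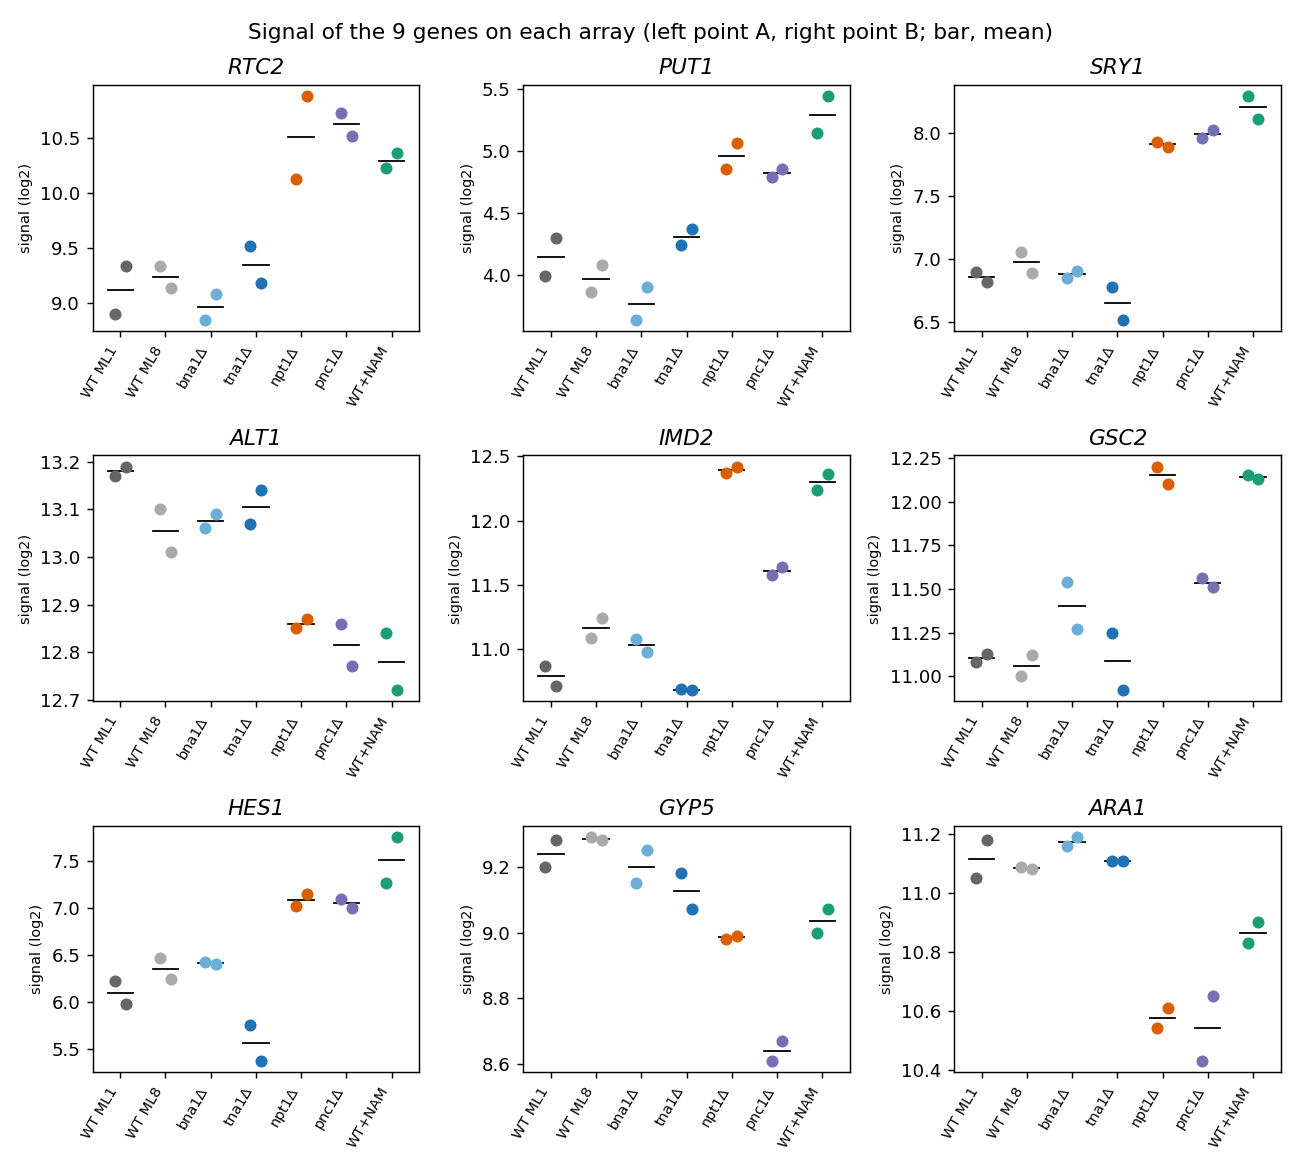
Log2 signal (y axis) of each of the 9 genes on all 14 arrays, grouped on the x axis by wild-type pair, deletion strain or nicotinamide; the left point of a group is culture A, the right point culture B and the bar their mean, and each panel has its own y range. The npt1Δ, pnc1Δ and nicotinamide arrays stand apart from the other 8 in all panels but GSC2, where bna1Δ A reaches 11.54, and GYP5, where tna1Δ B meets the higher nicotinamide array at 9.07.

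For 7 of the 9 genes, all but GSC2 and GYP5, the 6 arrays of npt1Δ, pnc1Δ and nicotinamide thus lay wholly on one side of the other 8. This held for 76 of the 5498 probe sets, or 1.38%. Since the genes were picked on these contrasts, nothing is read from this count. The share of all probe sets called against wild type was 4.2% in npt1Δ (196 higher, 35 lower), 2.24% in pnc1Δ (45 higher, 78 lower) and 15.9% with nicotinamide (488 higher, 386 lower). The median size of the difference was 0.899 over the 9 genes and 0.117 over all probe sets in npt1Δ, 0.633 and 0.109 in pnc1Δ, and 1.12 and 0.139 with nicotinamide. The choice fixed the larger medians of the 9 genes in advance, so nothing is read from them either. The 3 comparisons use the same 4 wild-type arrays, so a low or high wild-type value moves all 3 together.

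The genes differed in which condition gave the largest departure from wild type. It was nicotinamide for PUT1, SRY1, ALT1 and HES1, npt1Δ for IMD2 and GSC2, and pnc1Δ for RTC2, GYP5 and ARA1. The ratio of the largest to the smallest of the 3 log2 differences ran from 1.29 for RTC2 and SRY1 to 2.75 for GYP5. Under the alternatives run, this leading condition held for SRY1, IMD2, HES1 and GYP5. For PUT1 it became pnc1Δ after quantile normalization, with a ratio of 3.22, and also with the S. cerevisiae probe sets normalized alone (4.55). The ratio for GYP5 reached 3.34 after median centring. For RTC2 it became npt1Δ without npt1Δ A, at 1.70 beside 1.45 in pnc1Δ, and for ARA1 npt1Δ without pnc1Δ A, at -0.52 beside -0.45. For ALT1 it became pnc1Δ without pnc1Δ A, without nicotinamide B or after median centring. For GSC2 it became nicotinamide without npt1Δ A, without nicotinamide B or after median centring.

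**Figure D2:**
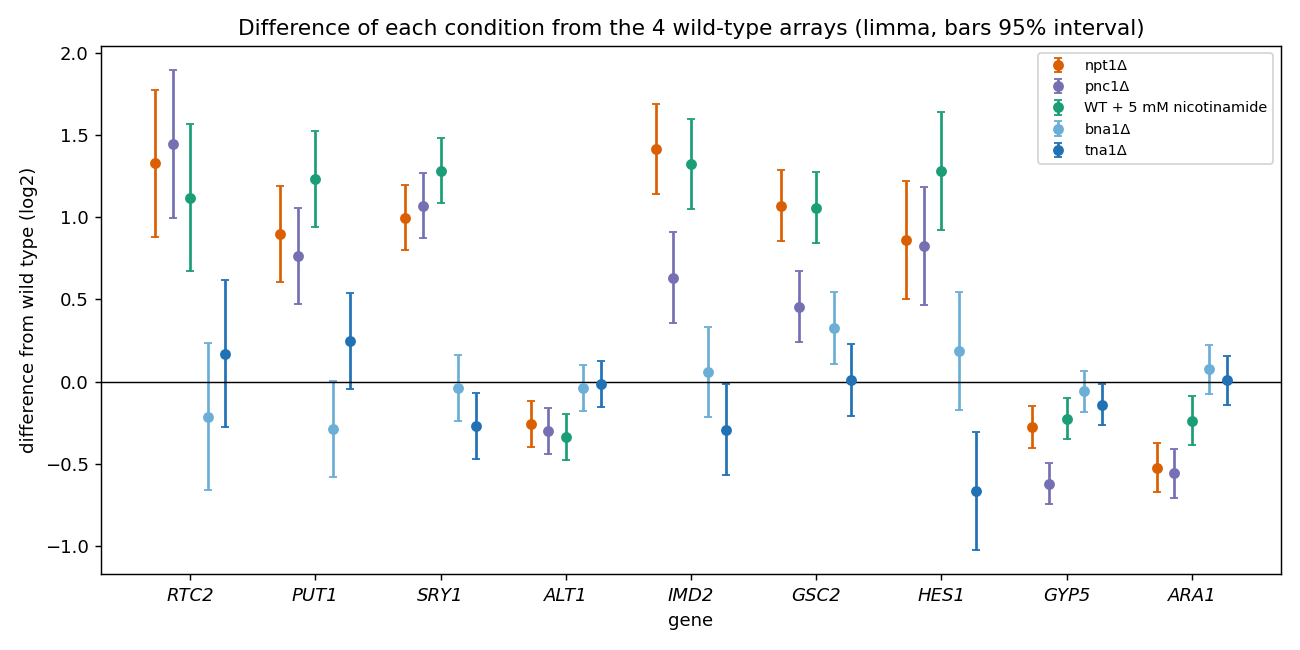
Difference from the 4 wild-type arrays (y axis, log2) for each of the 9 genes (x axis) in the 5 conditions; points are limma estimates and bars 95% intervals. The npt1Δ, pnc1Δ and nicotinamide points lie on one side of 0 for each gene, between 0.46 and 1.45 for the 6 higher genes and between -0.62 and -0.23 for the 3 lower ones, while bna1Δ and tna1Δ lie nearer to 0 apart from HES1 in tna1Δ at -0.66.

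Near the threshold of choice, the largest of a gene's 3 adjusted p-values was 0.0492 for ALT1 (in npt1Δ), 0.0433 for GSC2 (in pnc1Δ) and 0.038 for ARA1 (with nicotinamide). Genes just outside were YIR042C (0.0501 in pnc1Δ), HUG1 (0.0611 in pnc1Δ) and WHI2 (0.0717 in npt1Δ). YLL066W-B and TEP1 followed, at 0.0908 and 0.103 in pnc1Δ. HUG1 differed from wild type by 1.36, 0.88 and 2.45, so the threshold separated genes by their spread as well as by their size. Membership also rested on single arrays: 3 of the 9 genes met the rule when pnc1Δ A was left out and 4 when pnc1Δ B or ML1 B was. With 1 wild-type pair as the control, ML1 or ML8, 5 of the 9 met it. The normalization mattered as well: 6 met it after median centring, which lost ALT1, GYP5 and ARA1, all of the lower genes. Quantile normalization kept 7 and lost PUT1 and ALT1. A filter on dim probe sets kept 8 and lost ALT1.

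The size of the shift was then compared directly between npt1Δ, pnc1Δ and nicotinamide. The wild-type arrays do not enter these differences, but the arrays of the 3 conditions had been used, through another contrast, to choose the genes. The choice asked for a shared direction in all 3 and favoured a small spread in this same fit. These p-values and intervals are therefore not independent of it. In npt1Δ against pnc1Δ, 3 of the 9 genes were called, beside 6.02% of all probe sets. IMD2 was 0.78 higher in npt1Δ (95% interval 0.465 to 1.10, adjusted p = 0.00816, limma), and GSC2 was 0.61 higher (0.364 to 0.866, adjusted p = 0.00849). GYP5, a gene that was lower than wild type in both, was 0.35 higher in npt1Δ (0.201 to 0.490, adjusted p = 0.00981), so that its departure from wild type was the larger in pnc1Δ. Both arrays of npt1Δ were above both of pnc1Δ for each of these genes.

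No difference between npt1Δ and pnc1Δ passed for the other 6 genes. Their intervals rest on the spread that helped these genes to be chosen, so they can be too narrow. The npt1Δ minus pnc1Δ difference was -0.12 for RTC2 (-0.638 to 0.399), 0.14 for PUT1 (-0.203 to 0.474) and 0.04 for HES1 (-0.378 to 0.455). It was more narrowly bounded for SRY1, at -0.07 (-0.303 to 0.154), ALT1, at 0.04 (-0.12 to 0.205), and ARA1, at 0.04 (-0.137 to 0.208). The median size over the 9 genes, 0.119, was close to the 0.113 of all probe sets. Since the choice asked for a shared direction, nothing is read from this. All 3 calls were lost when pnc1Δ A was left out (adjusted p 0.0719 for IMD2, 0.0530 for GSC2, 0.0987 for GYP5). Leaving out npt1Δ A lost GSC2 (0.0614), leaving out npt1Δ B lost IMD2 (0.0697) and GYP5 (0.0731), and leaving out pnc1Δ B lost GSC2 (0.0670). GYP5 was also lost in a fit of only these groups (0.0833).

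In nicotinamide against pnc1Δ, 4 of the 9 genes were called, beside 15.4% of all probe sets. IMD2 was 0.69 higher with nicotinamide (0.372 to 1.01, adjusted p = 0.00775, limma), GSC2 0.60 (0.352 to 0.855, adjusted p = 0.00434), GYP5 0.40 (0.251 to 0.540, adjusted p = 0.00188) and ARA1 0.32 (0.149 to 0.494, adjusted p = 0.0177). GYP5 and ARA1, which were lower than wild type in both conditions, were thus nearer to wild type with nicotinamide. GSC2 and GYP5 were called in every alternative run for this comparison. IMD2 was lost without pnc1Δ A (0.0583) or nicotinamide B (0.0681), and ARA1 without pnc1Δ A (0.156), without nicotinamide B (0.131) or with only these groups in the fit (0.137). Unadjusted p-values were below 0.05 for HES1 and PUT1 too, with differences of 0.46 and 0.47 that did not pass the adjustment (0.146 and 0.0686). For PUT1 this direction turned after quantile normalization, to -0.312 (adjusted p = 0.279).

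In nicotinamide against npt1Δ, 1 of the 9 genes was called, beside 9.04% of all probe sets. ARA1 was 0.29 higher with nicotinamide (0.114 to 0.459, adjusted p = 0.0476, limma), and both nicotinamide arrays (10.83 and 10.90) were above both npt1Δ arrays (10.54 and 10.61). That call was lost on leaving out any array of either group. It was also lost under other settings, among them quantile normalization (adjusted p = 0.108), a filter on dim probe sets (0.0539) and a fit of only these groups (0.144). IMD2 and GSC2 were nearly level in these conditions, at -0.09 (-0.410 to 0.224) and -0.01 (-0.263 to 0.240). SRY1 (0.29, adjusted p = 0.129), HES1 (0.42, adjusted p = 0.224) and PUT1 (0.33, adjusted p = 0.237) were higher on both nicotinamide arrays but did not pass.

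**Figure D3:**
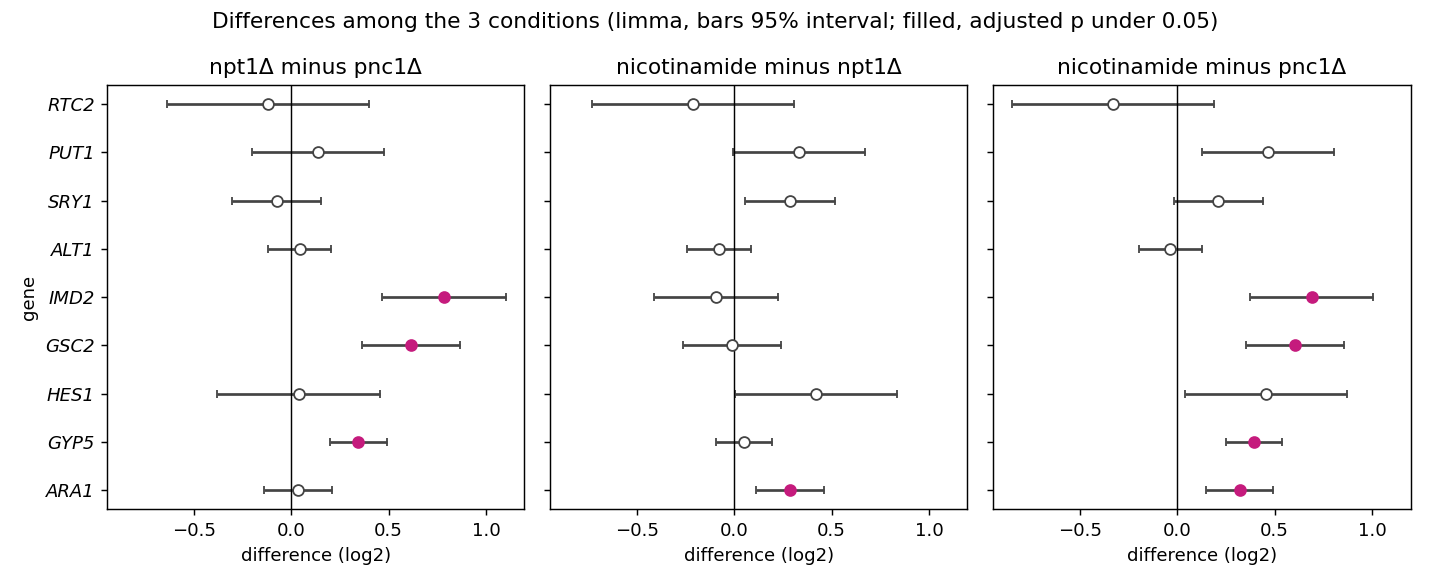
Differences among npt1Δ, pnc1Δ and nicotinamide for the 9 genes (x axis, log2; points, limma estimates; bars, 95% intervals; filled points, adjusted p under 0.05). IMD2, GSC2 and GYP5 are filled in both panels that involve pnc1Δ, at 0.35 to 0.78, and ARA1 in both panels that involve nicotinamide, at 0.29 and 0.32.

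The means of the bna1Δ and tna1Δ arrays do not enter the differences on which the genes were chosen, but the spread within these pairs entered the variance behind the adjusted p-values. Against wild type 1 probe set was called in each, 0.0182% of all (172 and 197 at an unadjusted p below 0.05), and neither was one of the 9 genes. Their comparison with wild type shares the control arrays that served in the choice, so these values are again a description. GSC2 was 0.33 higher in bna1Δ (± 0.10 SE) and the one gene of the 9 with both bna1Δ arrays outside the wild-type range, as were 7.49% of all probe sets. That difference was 0.192 without array A and 0.458 without array B. In tna1Δ, 4 of the 9 genes had both arrays outside that range, all of them lower, as against 10.8% of all probe sets in either direction. These were HES1 at -0.66 (± 0.16 SE), IMD2 at -0.29 (± 0.12 SE), SRY1 at -0.27 (± 0.09 SE) and GYP5 at -0.14 (± 0.06 SE). HES1, IMD2 and SRY1 were thus lower in tna1Δ and higher in npt1Δ, pnc1Δ and nicotinamide, though none was called in tna1Δ. For IMD2 the tna1Δ arrays (10.69 and 10.68) were close to wild-type array ML1 B (10.71). The ML8 arrays read 11.09 and 11.24, so the size of the IMD2 difference depends on the wild-type pair.

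In the test of bna1Δ against tna1Δ, whose spread within pairs had a part in the choice as said above, none of the 9 genes was called, beside 0.0364% of all probe sets (limma, adjusted p below 0.05). At an unadjusted p below 0.05 there were 5 of the 9 genes and 324 probe sets in all, or 5.89%. HES1 was 0.85 higher in bna1Δ (0.435 to 1.27, unadjusted p = 0.00105, adjusted p = 0.697), with arrays at 6.42 and 6.40 against 5.75 and 5.37. GSC2 (0.32), IMD2 (0.35) and SRY1 (0.23) were also higher in bna1Δ, and PUT1 was lower (-0.53), with adjusted p = 0.756 for each. For ALT1, GYP5 and ARA1 the differences were -0.03 (-0.190 to 0.134), 0.08 (-0.064 to 0.225) and 0.07 (-0.105 to 0.240). The median size over the 9 genes was 0.317 and over all probe sets 0.107.

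The wild-type pairs ML1 and ML8 were compared to see how much the control itself varied. These arrays formed 1 group in the fit behind the choice, where a small spread among them helped a gene to pass, so small differences here are not independent of the choice. None of the 9 genes was called between them, beside 0.0728% of all probe sets (limma on all 7 groups). An unadjusted p below 0.05 was found for 1 of the 9 genes and for 988 probe sets in all, or 18%. That gene was IMD2, which was lower in ML1 by a log2 difference of -0.38 (-0.560 to -0.198, adjusted p = 0.189). It was called when ML1 B was left out (-0.297, adjusted p = 0.0455), a setting under which 1132 probe sets were called. For the other 8 genes the pairs differed by 0.26 or less in size, the widest being HES1 at -0.26 and PUT1 at 0.18.

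Partner genes were then examined in 11 lists with 104 measured genes, the 9 genes left out, for their difference from wild type. The lists follow the pathways or families of the 9 genes or related processes, such as lysine synthesis, to which none of the 9 belongs. Of these partners, 2 rose and 1 fell in npt1Δ, 1 rose and 5 fell in pnc1Δ, and 22 rose and 5 fell with nicotinamide. These counts include LYS1, which itself met the rule of choice. It gave 1 of the 2 rises in npt1Δ, the 1 rise in pnc1Δ and 1 of the 22 with nicotinamide. The called share was 2.88%, 5.77% and 26% of the partners, beside 4.2%, 2.24% and 15.9% of all probe sets. None passed the test (limma) in bna1Δ or tna1Δ, where 4 and 5 had an unadjusted p below 0.05. At an unadjusted p below 0.05 the counts were 16, 27 and 44 of 104 in npt1Δ, pnc1Δ and nicotinamide (15.4%, 26% and 42.3%), beside 850, 821 and 1520 of all probe sets (15.5%, 14.9% and 27.6%). Under the 13 or 14 alternatives run for each call, PUT2 in npt1Δ and nicotinamide and ERG3, ERG26, VBA2 and GYP8 with nicotinamide were called throughout, and every other partner call was lost in at least 1.

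Among the genes of proline and arginine use, PUT2, whose enzyme follows Put1 on the way from proline to glutamate, moved in different directions. Its wild-type arrays read 8.41, 8.52, 8.48 and 8.42. It read 9.08 and 9.19 in npt1Δ, 9.0 and 9.11 with nicotinamide, and 8.11 and 8.18 in pnc1Δ. PUT2 therefore rose by 0.68 in npt1Δ (adjusted p = 5.35e-05, limma) and by 0.60 with nicotinamide (6.16e-05), and fell by 0.31 in pnc1Δ (0.0288), where PUT1 was 0.76 above wild type. The pnc1Δ call was lost under 9 of the 14 alternatives (adjusted p up to 0.315), including those without ML1 B, ML8 A, pnc1Δ A or pnc1Δ B. Between npt1Δ and pnc1Δ the PUT2 difference was 0.99 (adjusted p = 1e-05). The other 8 genes of the list did not pass in any of the 3 conditions against wild type, among them PUT3, the activator of PUT1 and PUT2, at -0.18, 0.24 and -0.26, and the proline permease gene PUT4 at 0.44, 0.27 and 0.05 in npt1Δ, pnc1Δ and nicotinamide. PUT3 was lower in npt1Δ than in pnc1Δ by a difference of -0.42 (adjusted p = 0.0409), a call lost on leaving out any array of either group (0.0765 to 0.295), whereas that of PUT2 was kept.

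In the list of serine and threonine breakdown, CHA1, the catabolic serine and threonine deaminase, fell in pnc1Δ by 1.30 (adjusted p = 0.0123, limma) and rose with nicotinamide by 1.03 (0.00794), and its difference in npt1Δ was 0.06. SRY1 was higher by 0.996 to 1.28 in all 3. CHA1 read 5.35 and 5.99 in pnc1Δ and 8.19 and 7.80 with nicotinamide, against 7.39, 6.80, 6.76 and 6.93 in wild type. The CHA1 calls were lost without pnc1Δ A (0.17) and without nicotinamide A (0.0931), respectively. SER33, a phosphoglycerate dehydrogenase of serine synthesis, rose by 0.56 with nicotinamide, a call lost without nicotinamide B. The list holds some genes of serine synthesis but not SER3, which met the rule of choice. SER3 differed by 0.77, 0.53 and 0.49 in npt1Δ, pnc1Δ and nicotinamide. Among the transaminases, ALT2, the paralogue of ALT1, rose by 0.63 with nicotinamide (adjusted p = 0.00432), where ALT1 differed by -0.34. Without nicotinamide B the ALT2 call was lost (0.0775). ALT2 differed by 0.03 in npt1Δ and -0.01 in pnc1Δ, and no other transaminase passed against wild type.

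The guanine nucleotide list gave 1 call, IMD4, which rose by 0.20 with nicotinamide (adjusted p = 0.0202, limma) and was lost without nicotinamide B or against ML8 alone. IMD3 and IMD4, which encode the other active forms of the enzyme, differed by 0.16 and 0.11 in npt1Δ and by 0.03 and 0.06 in pnc1Δ, while IMD2 differed by 1.42 and 0.63. In the list of beta-1,3-glucan synthesis 0 of 8 partners passed against wild type in limma, with 1, 3 and 0 at an unadjusted p below 0.05 in npt1Δ, pnc1Δ and nicotinamide. FKS1, the paralogue of GSC2 that serves vegetative growth, differed by 0.16, 0.19 and 0.11 in npt1Δ, pnc1Δ and nicotinamide. RHO1, the GTPase that regulates the synthase, differed by 0.21, 0.18 and -0.07.

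Of the oxysterol-binding family, OSH2 fell by 0.44 in pnc1Δ and OSH3 fell by 0.30 with nicotinamide (adjusted p 0.0154 and 0.0119, limma), calls lost without pnc1Δ A and without nicotinamide B. KES1, the paralogue of HES1, differed by 0.18, 0.15 and 0.19 in npt1Δ, pnc1Δ and nicotinamide, with an SE of 0.23, and did not pass. These values rest on wild-type array ML1 A, where KES1 read 11.35. It read 12.12 to 12.47 on every other array, so ML1 A lowered the wild-type mean and widened the SE. In the ergosterol list, 10 of 23 genes rose and 1 fell with nicotinamide, and none passed (limma) in npt1Δ or pnc1Δ, where 4 and 1 had an unadjusted p below 0.05. Of all probe sets 15.9% were called with nicotinamide and 4.2% and 2.24% in npt1Δ and pnc1Δ. The largest rises were those of the sterol synthesis enzyme genes ERG26 (0.59), ERG4 (0.55), ERG3 (0.48) and ERG25 (0.43), and ERG20 fell by 0.22. Wild-type array ML1 A was the lowest wild-type array for each of these rising genes, which raised their sizes. It read 12.92 for ERG4 (13.46 to 13.63 on the rest) and 13.57 for ERG25 (13.81 to 14.04). For ERG26 it read 11.57 (11.86 to 11.90) and for ERG3 13.28 (13.45 to 13.62). The calls of ERG4, ERG25 and ERG20 were each lost without ML1 B, without nicotinamide A and without nicotinamide B, and that of ERG20 also without either ML8 array. The list's median difference with nicotinamide was 0.225, against -0.005 over all probe sets.

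Beside RTC2, 5 of 11 measured vacuolar amino acid transporter genes rose with nicotinamide and 1 fell, and none passed (limma) in npt1Δ or pnc1Δ, where 0 and 2 had an unadjusted p below 0.05. The shares of all probe sets called were again 15.9% with nicotinamide, 4.2% in npt1Δ and 2.24% in pnc1Δ. The falling gene was VBA2, a vacuolar basic amino acid transporter, at -1.46 (adjusted p = 0.000105, limma). AVT3 (0.38) and YPQ2 (0.28) were among those that rose, both lost without nicotinamide B. VBA3 is another, but its mean signal, 2.14, was below the background limit. In the lysine list, LYS1, whose enzyme makes lysine in the last step of the pathway, rose by 0.29 in npt1Δ, 0.31 in pnc1Δ and 0.24 with nicotinamide (adjusted p 0.0291, 0.0341 and 0.0300), and the other 7 genes did not pass. LYS1 belongs to the 16 probe sets that met the rule of choice, and its calls were each lost under 8 or 9 of the 14 alternatives, among them ML1 B or ML8 B left out.

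Of the TBC-domain activators of Rab GTPases, 1 of 9 passed: GYP8 fell by 1.80 with nicotinamide (adjusted p = 6.57e-07, limma). It read 9.29 and 9.07 with nicotinamide and between 10.71 and 11.18 on the other 12 arrays. GYL1, whose protein acts together with Gyp5, differed by -0.03, 0.12 and -0.01 in npt1Δ, pnc1Δ and nicotinamide. Among the aldo-keto reductases, ARA2, an NAD+-dependent arabinose dehydrogenase, fell by 0.32 in npt1Δ (adjusted p = 0.0174), and its difference was -0.20 in pnc1Δ and -0.03 with nicotinamide. That call was lost without npt1Δ B (or against ML1 alone). GRE3 fell by 0.36 in pnc1Δ and by 0.24 with nicotinamide, YJR096W fell by 0.58 in pnc1Δ, and YDL124W rose by 0.64 with nicotinamide. The calls in pnc1Δ were lost without pnc1Δ A and those with nicotinamide without nicotinamide B, and GRE3 was lost under 10 of 14 alternatives with nicotinamide.

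**Figure D4:**
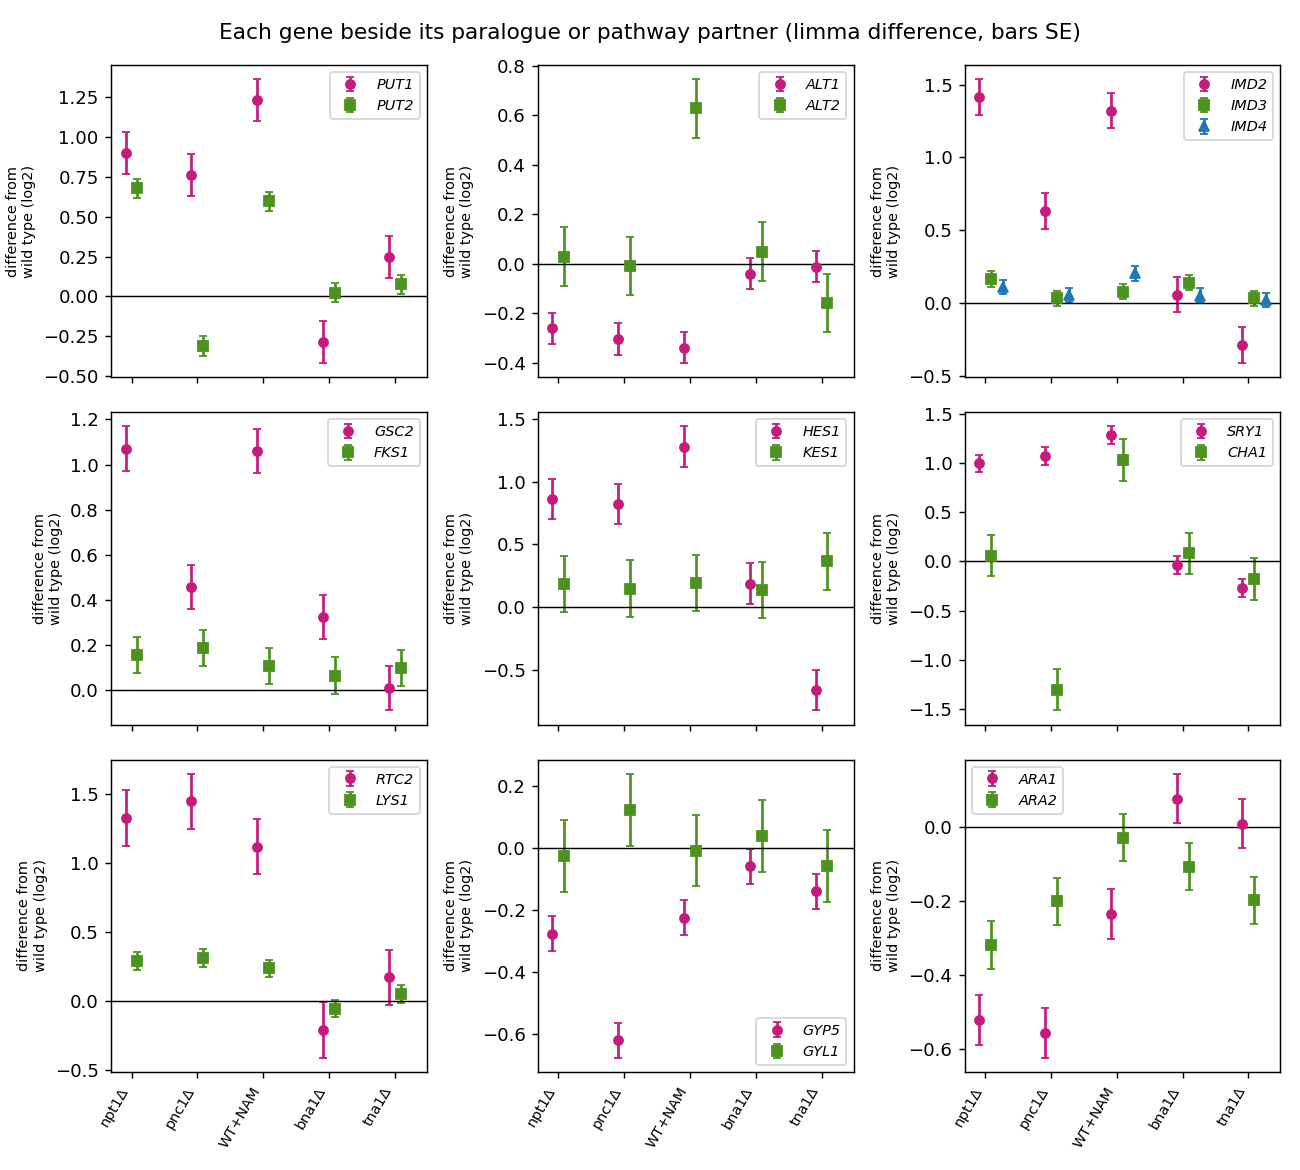
Difference from wild type (y axis, log2) of each of the 9 genes beside a gene of the partner lists, or IMD3 and IMD4 for IMD2. Bars are SE. The x axis gives npt1Δ, pnc1Δ, nicotinamide (WT+NAM), bna1Δ and tna1Δ, and each panel has its own y range. RTC2 is drawn beside LYS1, a lysine synthesis gene and not a transporter gene, which itself met the rule of choice. The KES1 points beside HES1 are raised by a low wild-type reading on ML1 A (11.35). PUT2 and CHA1 are below 0 in pnc1Δ, where PUT1 and SRY1 are 0.76 and 1.07 above wild type, and ALT2 is at 0.63 with nicotinamide, where ALT1 is at -0.34.

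The genes whose pattern over the 14 arrays was most like that of each gene were found by Pearson's r of the log2 values, as a description, since the arrays share strains, treatments and controls. The nearest were LYS1 for RTC2 (r = 0.911), FCY21 for PUT1 (0.935), ODC2 for SRY1 (0.933), MEF1 for ALT1 (0.904) and URM1 for IMD2 (0.961). They were SSU1 for GSC2 (0.966), SRY1 for HES1 (0.928), WHI2 for GYP5 (0.922) and APE4 for ARA1 (0.917). Next came SER3 and SRY1 for RTC2, YIR042C and YDR042C for PUT1, HES1 and FHN1 for SRY1, ABP1 and SAC3 for ALT1, and SSU1 and ATG10 for IMD2. For GSC2 they were APC11 and PHO89, for HES1 FHN1 and IMD2, for GYP5 VPS13 and DSD1, and for ARA1 MAP2 and MDH3. The likeness is of shape and not of size: URM1 differed from wild type by 0.26, 0.10 and 0.24 in npt1Δ, pnc1Δ and nicotinamide, and PHO89, a phosphate transporter gene, by 2.51, 0.65 and 3.03, beside 1.07, 0.46 and 1.06 for GSC2. Among the 9 genes themselves, the highest r was 0.94, for IMD2 with GSC2, and the value of smallest size was -0.44, for GSC2 with GYP5.

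The other 6 named genes called in the same direction in all 3 conditions, beside LYS1, ranged widely in size. SSU1, the sulphite pump gene, differed by 0.91, 0.37 and 0.87 in npt1Δ, pnc1Δ and nicotinamide, and SNZ1, of vitamin B6 synthesis, by 0.33, 1.22 and 1.17. ODC2, a mitochondrial carrier of oxodicarboxylates, differed by 0.29, 0.50 and 0.58, and SER3, of serine synthesis, by 0.77, 0.53 and 0.49. FHN1 and YDR042C differed by 0.54, 0.45 and 0.56 and by 1.35, 0.69 and 1.90. The 8 probe sets called in all 3 conditions with unlike directions were PDH1, RTC3, BNA5, STF1, YGP1, PUT2, YDR248C and BNA6. All but YGP1 and RTC3 were higher in npt1Δ and nicotinamide and lower in pnc1Δ.

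By the gene order of the RefSeq R64 assembly, the 9 genes lie on chromosomes II, VII, VIII, XI, XII, XV and XVI. IMD2 is the 3rd protein-coding gene from the end of chromosome VIII, and SRY1 the 6th from the end of chromosome XI. RTC2 and ARA1, which differed from wild type in opposite directions, are separated on chromosome II by a single gene, YSW1. YSW1 acts in spore formation and was picked out only once its values were known. It rose by 4.15 in npt1Δ and 4.49 with nicotinamide (adjusted p 2.1e-09 and 7.66e-10, limma), and its difference in pnc1Δ was 0.17 (0.521). COS9 and JEN1, on either side of SRY1, differed by 0.06, 0.14 and 0.15 and by -0.03, -0.03 and 0.20 in npt1Δ, pnc1Δ and nicotinamide, and neither passed. Around IMD2, PHO12, YHR218W and YHR219W had no tested probe set, so the nearest neighbours of IMD2 cannot be judged. YHR214C-E, a little farther off, differed by 0.69, 0.07 and 0.28 in the same order and did not pass.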

How the data were processed

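Total RNA of 14 yeast cultures was measured on Affymetrix Yeast 2.0 arrays. The deposited table holds log2 signal values that the authors computed with GCRMA, per the submitters' processing notes, with no version named there. These values entered the fits unchanged. Arrays have no read depth, and their number limits the precision. Of 10928 probe sets, 5498 matched 1 gene each (5449 genes) through the platform annotation and RefSeq R64, which also gave the gene order. The background limit is the 95th percentile of 1746 probe sets whose gene is not in R64. limma 3.58.1 (R 4.3.3; lmFit, eBayes) was fitted to all 14 arrays with the 4 wild-type arrays as 1 group (8 residual degrees of freedom), or to 7 groups for ML1 against ML8, with Benjamini-Hochberg adjustment over 5498 probe sets. The 9 genes and the partner lists were chosen with earlier results of these data known. Named are the 9 genes, the other genes that met or nearly met the same rule, up to 4 called partners per list or, where none passed, up to 2 with the highest signal, and the 3 genes nearest in pattern to each; other partners are named as paralogues or regulators. The steps were tested on simulated data. A planned search of promoter sequences was not analysed here. Alternatives were other normalizations, a dim filter, either wild-type pair alone, only the groups compared, the replicate letter as a block, and leaving out each array. The letters A and B, whose meaning the labels do not give, were not taken to pair samples.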

Additional observations from a re-analysis of the deposited data

How the results depend on the processing

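The directions of the 9 genes against wild type in npt1Δ, pnc1Δ and nicotinamide did not turn in any of the 378 values recomputed under the alternatives. Nothing is read from this, since the genes were chosen for these directions. Both arrays of each condition also lay outside the wild-type range, so no array left out and no single control pair could turn them. The dim filter, the replicate block and the fit of only the groups compared returned the same differences as the main fit. Of the 378 values, 16 moved by more than the spread between replicates. Of 450 recomputed values in the tested comparisons, 21 lost a call, 6 gained one and none reversed with a call. With only the groups compared in the fit, 3 of the 9 genes were called in pnc1Δ against wild type in place of 9, and 0 in place of 1 in nicotinamide against npt1Δ. A filter that left out 87 dim probe sets also gave 0 there. Leaving out each array in turn gave 3 to 8 called genes in pnc1Δ against wild type, 0 to 2 in npt1Δ against pnc1Δ, 2 to 5 in nicotinamide against pnc1Δ, 0 in nicotinamide against npt1Δ and 0 to 1 in ML1 against ML8. Deviations of arrays with the same letter, A or B, correlated above 0.1 in 17 of 21 pairs of groups (range -0.23 to 0.59), a hint of shared structure that did not hold for every pair. The fit with the replicate block gave 2 in nicotinamide against npt1Δ, where PUT1 joined ARA1 (adjusted p = 0.0442), and PUT1 was also called in nicotinamide against pnc1Δ (0.00565). SRY1 was called in nicotinamide against npt1Δ after quantile normalization (0.0308), and HES1 in nicotinamide against pnc1Δ without nicotinamide A (0.0449). A quantile normalization of the S. cerevisiae probe sets alone, chosen after seeing the data, gave 0.159 for PUT1 in npt1Δ and 0.335 with nicotinamide. PUT1 in nicotinamide against pnc1Δ, positive under the block, turned negative under both quantile normalizations (-0.312 and -0.388), without a call. Among the partner genes, a fit of only the groups compared called 1 in npt1Δ, 0 in pnc1Δ and 9 with nicotinamide in place of 3, 6 and 27. The replicate block called 10 in pnc1Δ and the control ML8 alone 3. Leaving out each array gave 1 to 3 in npt1Δ, 0 to 7 in pnc1Δ and 7 to 31 with nicotinamide. Of the 27 genes named as nearest in pattern, 11 stayed among the nearest 3 by Spearman's rho and 14 over the means of the 7 groups. Over all probe sets, a fit of only the groups compared called 138 in npt1Δ, 29 in pnc1Δ and 533 with nicotinamide against wild type, 191 in npt1Δ against pnc1Δ, 149 in nicotinamide against npt1Δ and 1 in ML1 against ML8. The replicate block called 240 in pnc1Δ, and the control ML1 alone 190. ML8 alone called 4 in bna1Δ and 6 in tna1Δ. Leaving out arrays gave 22 to 202 in pnc1Δ, 458 to 1156 with nicotinamide, 163 to 263 in npt1Δ against pnc1Δ, 262 to 399 in nicotinamide against npt1Δ, 490 to 709 in nicotinamide against pnc1Δ, 1 to 1132 in ML1 against ML8, 2 to 5 in bna1Δ against tna1Δ and 1 to 5 in tna1Δ. The cause of these changes was not tested, beyond the fewer arrays in such fits.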
